A study of Arabidopsis with 6 samples.

Results

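Aminoacyl-tRNA synthetases are the enzymes that join each amino acid to its own tRNA, and so supply every ribosome with charged tRNA. Plants translate in the cytosol, in plastids and in mitochondria. Nuclear genes encode the enzymes for all these places: some serve the cytosol, some are imported into both organelles, and a few are shared by the cytosol and mitochondria. The enzymes fall into classes I and II, which differ in the fold of the catalytic domain. The set described here holds 45 listed loci of this family, 26 for enzymes that serve the cytosol and 19 for enzymes of the organelles alone. It was chosen by function, and AT1G17960, of the threonyl type, was put on the list with its rise already known. Amino acid and place of work were assigned from general knowledge of these Arabidopsis genes, not from the arrays. The cytosolic placement of AT1G17960 is probable and the least certain of these.

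Transcript levels came from 6 Affymetrix ATH1 arrays of Arabidopsis thaliana, 3 of wild-type plants of the cultivar Col-3 and 3 of an apum23 mutant in the same cultivar. All plants grew on soil for 21 days at 22 °C with 8 h of light and 16 h of dark, and their aerial parts were taken. The series names the mutant allele apum23-1, while the descriptions of apum23 replicates 2 and 3 read apum23-2 and apum23-3. No source used here says if those names mean other alleles. APUM23 is a nucleolar Pumilio-type RNA-binding protein of pre-rRNA processing, and its own level was not analysed here. The comparison asks which transcripts the mutation alters under normal growth.

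A locus counted as measured when the probe table gives it a probe set of its own, which held for 19 of the 45. Of these, 15 encode enzymes of the cytosol, 2 enzymes of cytosol and mitochondria, and 2 enzymes of the organelles alone. The tyrosyl loci AT2G33840 and AT1G28350 share a probe set and could not be told apart, and the rest were not analysed here. The organelle side therefore rests on 2 genes of 19.

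Levels are log2 probe set intensities after quantile normalization of the deposited values, because the array medians of the deposited values ran from 5.34 to 6.10. The array of wild-type replicate 1 differed from the others in its added control transcripts, with a mean of 5.36 against 9.42 to 9.74 on the other 5 arrays, so the main counts are also given without it. Arrays of the same genotype correlated at 0.993 to 0.996 and arrays of different genotypes at 0.983 to 0.987. The leaf genes RCA and PRK were bright on all arrays (12.1 to 13.8), and the root hair genes EXPA7 and EXPA18 lay at 3.59 to 4.31, close to the lower quartile of all probe sets (3.60). Of 8 measured markers of leaf, root, meristem and stomata, PRK fell (-0.44, limma adjusted p = 0.0172) and 7 were not called; its part in the results below was not tested. The call on PRK was lost without the array of wild-type replicate 1 (-0.41), and likewise without that of apum23 replicate 1 (-0.40) or 2 (-0.36). PRK was also not called on the deposited values (-0.41, limma adjusted p = 0.403), but was with arrays centred on their medians (-0.58, limma adjusted p = 0.0159). The 3′ minus 5′ difference of the actin control, a sign of RNA integrity, was 1.51 to 1.64 in wild type and below that range on all apum23 arrays (lowest 1.34), and its part was not tested either. The same difference of the GAPDH control overlapped between the genotypes (-0.27 to 0.021 in wild type, -0.28 to -0.065 in apum23). In whole aerial parts, fewer cells of a type and less RNA per cell cannot be told apart.

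The measured synthetase genes were mostly higher in apum23. A gene is called when its limma adjusted p, taken over all 22746 tested probe sets, is under 0.05. Of the 19, 8 rose, 1 fell and 10 were not called, and AT1G17960 is among the 8. Over all probe sets 9.69% rose and 10% fell. Without the dimmest 40% of probe sets, 16.0% rose and 17.3% fell, and 8 of the 18 synthetase genes left rose. Of the measured genes 16 of 19 had a log2 difference above 0, with a median of 0.29 against -0.02 for all probe sets, and 14 of 19 did with arrays centred on their medians. The 3 apum23 arrays lay above the 3 wild-type arrays in 10 genes and below them in 1, against 15.9% and 18.4% of all probe sets. Without wild-type replicate 1 the counts were again 8 higher and 1 lower, where 8.23% of all probe sets rose, but AT5G38830 left the list and AT5G26830 joined it.

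**Figure D1:**
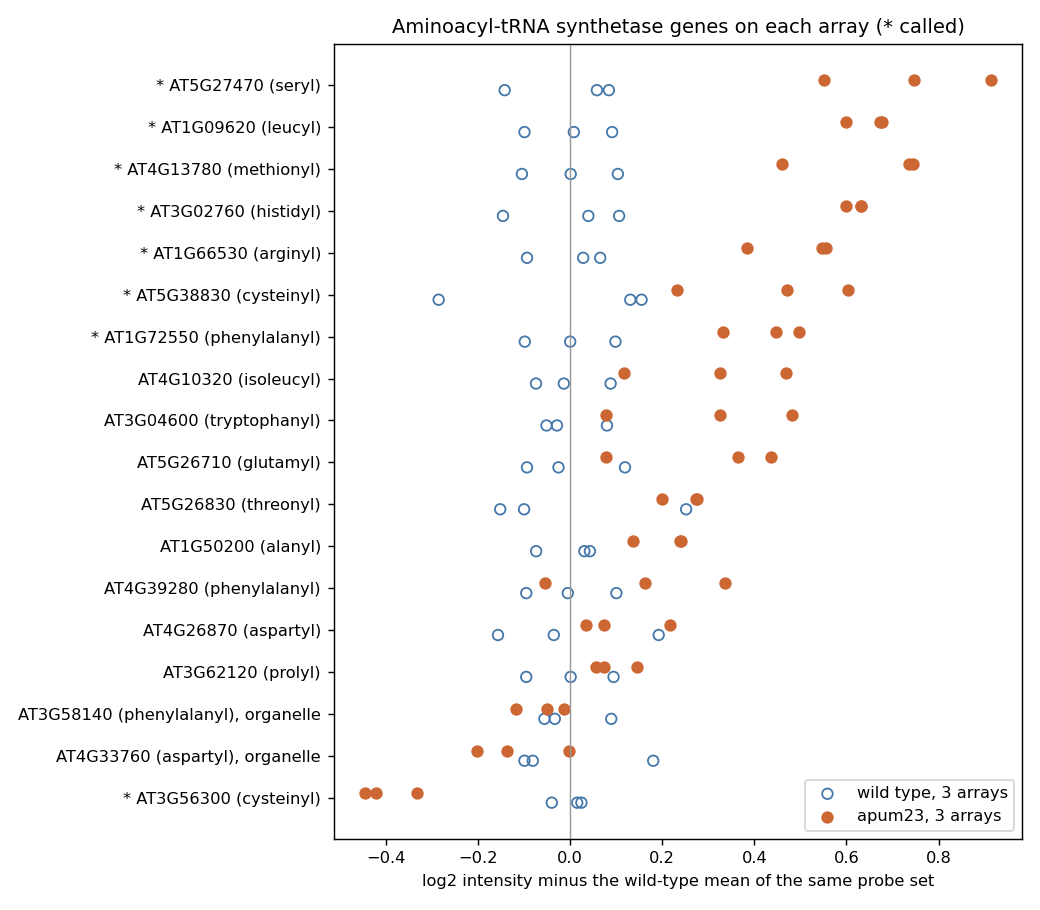
Each row is a synthetase gene other than AT1G17960, and each point is an array, placed by its log2 intensity minus the wild-type mean of that probe set (open, wild type; filled, apum23; 3 arrays each). The filled points lie to the right of the open ones for the 7 called genes at the top and to the left for AT3G56300 at the bottom, while the organelle genes AT3G58140 and AT4G33760 overlap.

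The clearest rises outside AT1G17960 were in the cytosolic seryl, leucyl, methionyl and histidyl enzymes. Seryl-tRNA synthetase, AT5G27470, read 9.39, 9.59 and 9.61 in wild type, against 10.28, 10.08 and 10.44 in apum23. Every apum23 array was above every wild-type array, and the log2 difference was 0.74 (95% interval 0.48 to 0.99; 1.67-fold; limma adjusted p = 0.00116). Leucyl-tRNA synthetase, AT1G09620, read 8.65, 8.57 and 8.46 against 9.16, 9.24 and 9.24. The groups again did not overlap, and the gene rose by 0.65 (95% interval 0.44 to 0.86; limma adjusted p = 0.000767).

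Methionyl-tRNA synthetase, AT4G13780, charges the initiator as well as the elongator tRNA for methionine. It read 8.56, 8.66 and 8.45 in wild type, against 9.02, 9.30 and 9.30 in apum23, a rise of 0.65 (95% interval 0.40 to 0.89; limma adjusted p = 0.0019). The lowest apum23 array, replicate 1, was still above the highest wild-type array. Histidyl-tRNA synthetase, AT3G02760, read 7.49, 7.42 and 7.23 against 7.98, 8.01 and 8.01. Its apum23 arrays agreed closely (SD 0.02, n = 3), and it rose by 0.62 (95% interval 0.40 to 0.84; limma adjusted p = 0.00129). These 4 genes and AT1G17960 were the 5 called under each of the 3 scalings tried, with the replicate number as a block and with each array left out. A setting outside these kept apum23 replicate 1 as the only mutant array. There AT5G27470 was at 0.75, AT1G09620 at 0.60, AT4G13780 at 0.46, AT3G02760 at 0.61 and AT1G17960 at 2.95.

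The other 3 rises were smaller. Arginyl-tRNA synthetase of the cytosol, AT1G66530, read 7.28, 7.15 and 7.31 in wild type, against 7.80, 7.79 and 7.63 in apum23 (0.50, 95% interval 0.28 to 0.71; limma adjusted p = 0.00483). The groups were apart, and it stayed called with each array left out, with log2 differences of 0.45 to 0.56. AT1G72550 encodes the beta subunit of cytosolic phenylalanyl-tRNA synthetase, an enzyme built from alpha and beta subunits. It read 9.42, 9.22 and 9.32 against 9.77, 9.82 and 9.66 (0.43, 95% interval 0.21 to 0.65; limma adjusted p = 0.0112). The groups were apart, but the call was lost without wild-type replicate 2 (0.38, limma adjusted p = 0.0561).

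Cysteinyl-tRNA synthetase AT5G38830 was at the edge of the threshold. It read 7.69, 8.13 and 8.11 in wild type, against 8.45, 8.21 and 8.58 in apum23, and the low value was that of wild-type replicate 1. The log2 difference was 0.44 (95% interval 0.13 to 0.74; limma adjusted p = 0.0484). It was not called without wild-type replicate 1 (0.29, adjusted p = 0.157), wild-type replicate 2 (0.51, adjusted p = 0.0583), apum23 replicate 1 (0.42, adjusted p = 0.119) or apum23 replicate 3 (0.36, adjusted p = 0.186), nor with the replicate block (adjusted p = 0.0502). On the deposited values as they stand, AT1G66530 (0.60), AT1G72550 (0.46) and AT5G38830 (0.50) were not called, with adjusted p from 0.0931 to 0.284. The members called on that scale were 5, all higher, where 5.31% of all probe sets rose.

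The second cysteinyl locus, AT3G56300, went the other way. It read 4.24, 4.30 and 4.31 in wild type and 3.86, 3.84 and 3.95 in the mutant, so that all apum23 arrays were lower (-0.40, 95% interval -0.60 to -0.20; limma adjusted p = 0.0103). The apum23 values are close to the lower quartile of all probe sets, 3.60, where a probe set is near the background and the size of a change is uncertain. It was not called on the deposited values (-0.25, adjusted p = 0.777) or with arrays centred on their medians (-0.42, adjusted p = 0.0521), and it stayed called with each array left out (-0.43 to -0.37).

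AT1G17960, the threonyl-type gene, had the largest difference among the 19. It read 3.84, 3.77 and 3.68 in wild type, against 6.69, 6.97 and 6.89 in apum23. The wild-type arrays were near the lower quartile of all probe sets, so this gene was dim in wild type and well above that level in the mutant. The log2 difference was 3.09 (95% interval 2.85 to 3.32), or 8.50-fold, and its size is uncertain because the wild-type signal is near the background. Its place on the list rested on this rise, so it is given as a description. With arrays left out in turn the difference ran from 2.99 to 3.16, and on the deposited values it was 3.22.

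A second threonyl-tRNA synthetase gene, AT5G26830, whose product works in cytosol and mitochondria, was bright in both genotypes. It read 9.02, 8.67 and 8.62 in wild type, against 9.04, 8.97 and 9.04 in apum23 (0.25, 95% interval -0.01 to 0.51; limma adjusted p = 0.18). Wild-type replicate 1 reached into the apum23 range, and without it the gene was called (0.37, limma adjusted p = 0.0336). Next to AT1G17960 on chromosome 1, in the gene order of assembly TAIR10.1, lies AT1G17970. It read 6.74, 6.57 and 6.81 in wild type, against 5.87, 6.19 and 5.99 in apum23, and thus fell by 0.69 on the log2 scale (limma adjusted p = 0.0015), though not on the deposited values (-0.55, adjusted p = 0.144). Of 21 measured neighbours of the 19 synthetase genes, 0 rose, 4 fell and 17 were not called by limma, against 9.69% higher and 10% lower of all probe sets. The others that fell, named after their values were seen, were AT4G26860 (-0.64), AT4G33740 (-0.60) and AT3G62110 (-0.41), beside the aspartyl genes AT4G26870 and AT4G33760 and the prolyl gene AT3G62120.

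**Figure D2:**
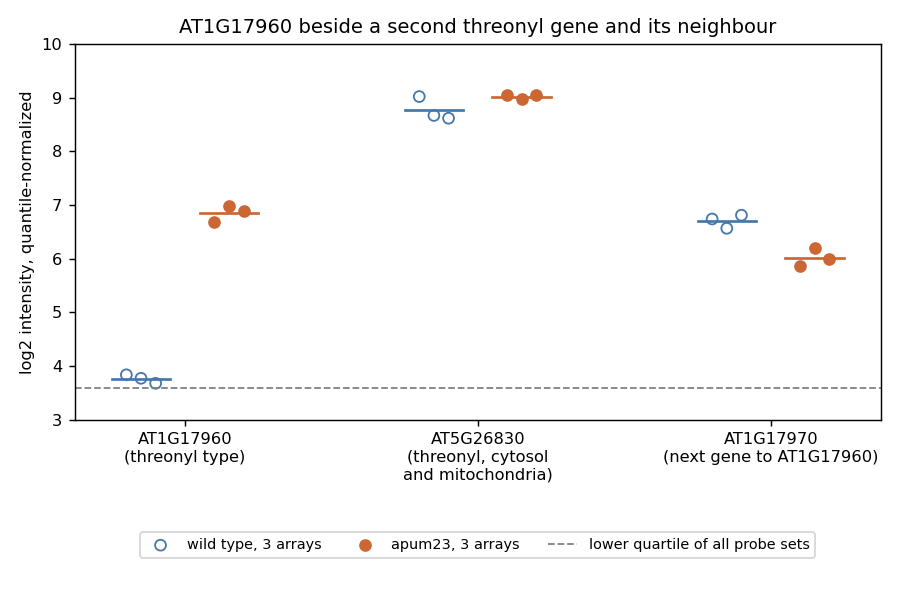
Quantile-normalized log2 intensity on each array for AT1G17960, the second threonyl gene AT5G26830 and AT1G17970, the gene next to AT1G17960 (points, 3 arrays a genotype; short lines, means; dashed line, lower quartile of all probe sets, 3.60). AT1G17960 goes from just above the dashed line to between 6.69 and 6.97, while AT1G17970 is lower in apum23.

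The remaining 8 cytosol-serving genes were not called, and all 8 had log2 differences above 0. Isoleucyl-tRNA synthetase, AT4G10320, read 9.04, 9.20 and 9.10 in wild type, against 9.44, 9.23 and 9.58 in apum23 (0.30, limma adjusted p = 0.0827). Tryptophanyl-tRNA synthetase, AT3G04600, differed by 0.29 (adjusted p = 0.105), as did glutamyl-tRNA synthetase, AT5G26710 (adjusted p = 0.11). In each of these 3 genes apum23 replicate 2 was the lowest apum23 array. Without it each was called, at 0.39, 0.40 and 0.40 in that order (limma adjusted p 0.0328 to 0.0366), where 8.65% of all probe sets rose. Other arrays left out lowered the differences. AT4G10320 was at 0.22 without apum23 replicate 3 (limma adjusted p = 0.294). Without apum23 replicate 1, AT3G04600 was at 0.20 (limma adjusted p = 0.309) and AT5G26710 at 0.22 (limma adjusted p = 0.298). ALATS (AT1G50200), the alanyl enzyme of cytosol and mitochondria, differed by 0.21 (95% interval -0.0018 to 0.41), with its groups apart. Differences were smaller for AT4G39280, the alpha subunit of cytosolic phenylalanyl-tRNA synthetase (0.15, 95% interval -0.11 to 0.40), for the aspartyl gene AT4G26870 (0.11, 95% interval -0.14 to 0.36) and for the prolyl gene AT3G62120 (0.09, 95% interval -0.12 to 0.30). The last 2 were slightly below 0 with arrays centred on their medians (-0.018 and -0.050).

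By class, 4 of 8 cytosol-serving genes of class I rose and 1 fell, and 4 of 9 of class II rose, AT1G17960 included. The medians were 0.37 for class I and 0.25 for class II. The rises thus lay in both classes, and the classes were not tested against each other.

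**Figure D3:**
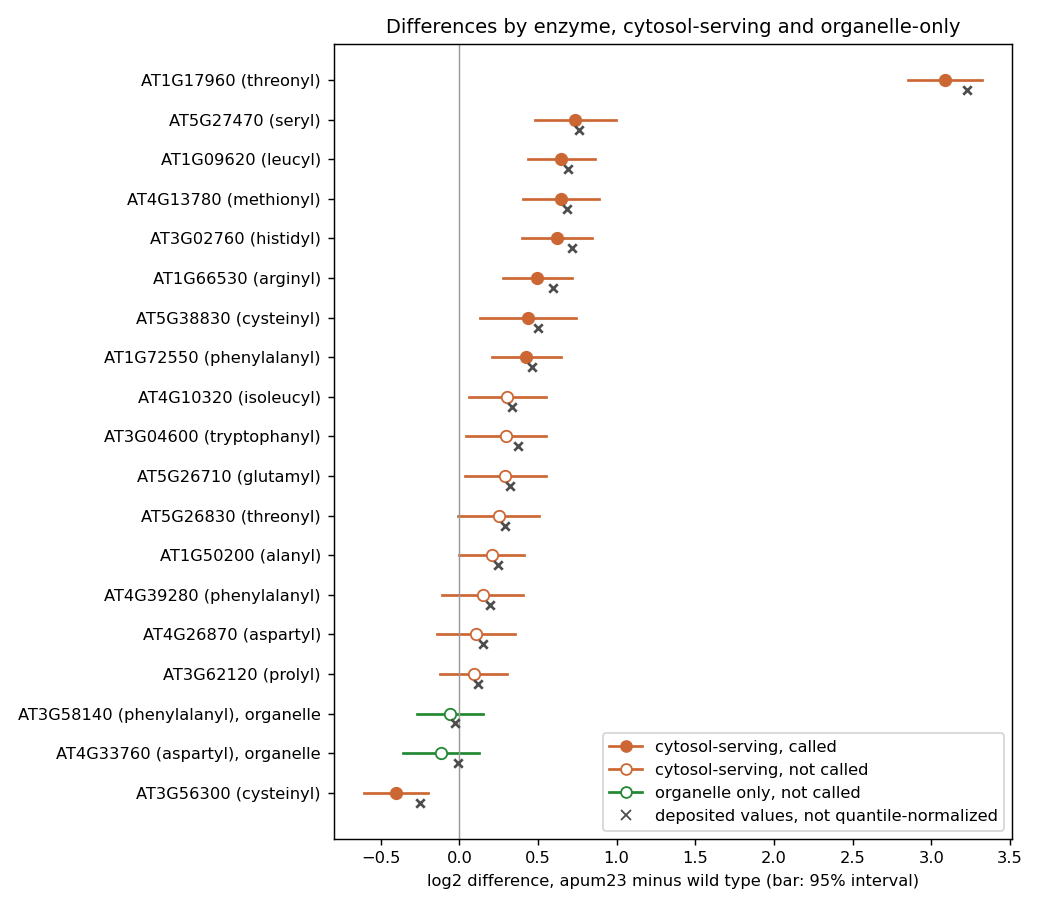
Log2 difference, apum23 minus wild type, for the 19 measured synthetase genes, with the 95% interval as a bar (filled, called; open, not called) and the difference on the deposited values as a cross. The cytosol-serving genes run from -0.40 to 3.09, and the organelle genes AT3G58140 and AT4G33760 sit just below 0.

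Of the organelle enzymes only 2 genes were measured, and neither was called. AT4G33760, the aspartyl-tRNA synthetase of plastids and mitochondria, read 7.48, 7.74 and 7.46 in wild type, against 7.36, 7.43 and 7.56 in apum23 (-0.11, 95% interval -0.36 to 0.13; limma adjusted p = 0.549). AT3G58140, the organelle phenylalanyl-tRNA synthetase, read 9.33, 9.48 and 9.36 against 9.27, 9.34 and 9.38 (-0.06, 95% interval -0.27 to 0.15; limma adjusted p = 0.736). The genotypes overlapped in both. Both 95% intervals overlap those of the uncalled cytosol-serving genes AT4G39280, AT4G26870 and AT3G62120, and the organelle and cytosol-serving genes were not tested against each other. The median was -0.09 (-0.019 when wild-type replicate 2 was dropped, -0.051 when apum23 replicate 1 was), against 0.30 for the 17 cytosol-serving genes, of which 8 rose, 1 fell and 8 were not called. Without AT1G17960, 7 of 16 rose.

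As a description of the arrays, the mean over the 16 cytosol-serving genes without AT1G17960 minus the mean over the 2 organelle genes was 0.03, -0.17 and -0.01 in wild type, against 0.47, 0.31 and 0.33 in apum23. A shift common to all probe sets of an array cancels in this difference. The cytosol-serving mean itself was 8.43, 8.45 and 8.40 in wild type, against 8.79, 8.69 and 8.80 in apum23, and the organelle mean was 8.41, 8.61 and 8.41 against 8.32, 8.38 and 8.47. The cytosol-serving mean separated the genotypes and the organelle mean did not. The organelle mean is over only 2 genes and ranged more widely in wild type, so this contrast does not compare the compartments.

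Enzymes for the same amino acid were compared within each array, in all 6 pairs that the measured genes allow. Of these, 5 were tested with an exact two-sided permutation test, in which 3 arrays against 3 cannot go below p = 0.1. For phenylalanine, the cytosolic beta subunit AT1G72550 minus the organelle enzyme AT3G58140 was 0.09, -0.26 and -0.03 in wild type, against 0.50, 0.48 and 0.28 in apum23, a shift of 0.49 (exact permutation p = 0.1, 0.25 adjusted over the 5 pairs). The genotypes were apart in this pair. The alpha subunit AT4G39280 minus AT3G58140 shifted by 0.21 (exact permutation p = 0.2), and beta minus alpha by 0.28 (exact permutation p = 0.3), with overlapping genotypes in both. Dropping apum23 replicate 1 gave 0.086 for the first shift. Dropping apum23 replicate 2 gave 0.31 for the first and 0.14 for the second. A rise of the beta but not of the alpha subunit is thus not shown as a difference between them.

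For aspartate, the cytosolic AT4G26870 minus the organelle AT4G33760 shifted by 0.22 (exact permutation p = 0.2), and the genotypes overlapped. Dropping wild-type replicate 1 gave 0.36, and dropping wild-type replicate 2 gave 0.11. For cysteine, AT5G38830 minus AT3G56300 was 3.45, 3.84 and 3.80 in wild type, against 4.59, 4.37 and 4.63 in apum23. The shift was 0.84 with the genotypes apart (exact permutation p = 0.1, 0.25 adjusted over the 5 pairs). All apum23 arrays were higher in AT5G38830 and lower in AT3G56300, so this outcome was fixed and adds nothing to their calls. AT3G56300 is near the background, and neither gene was called on the deposited values. For threonine, AT1G17960 minus AT5G26830 shifted by 2.84, given as a description.

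**Figure D4:**
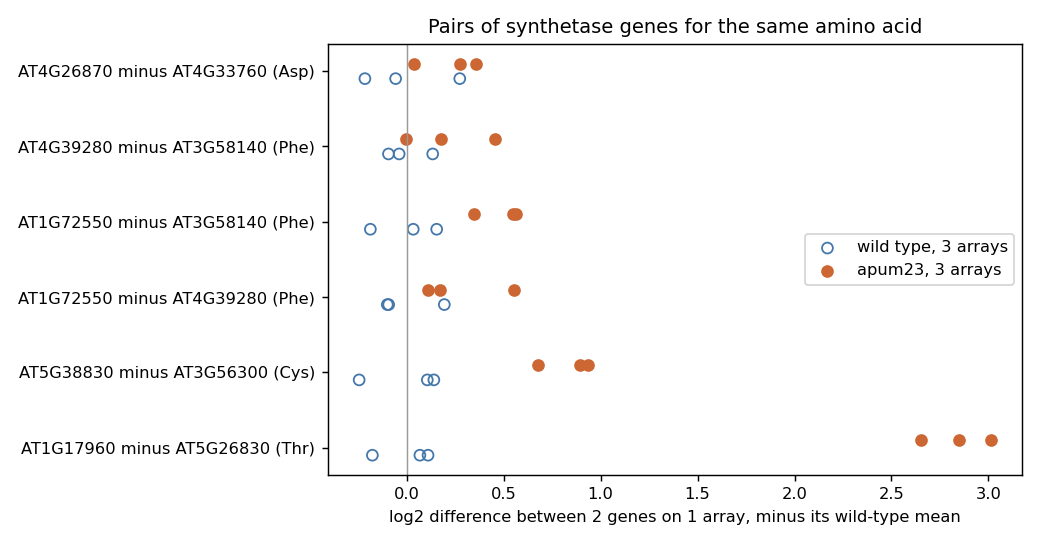
Each row is a pair of synthetase genes for the same amino acid. Points give the log2 difference between the 2 genes on an array, minus the wild-type mean of that difference (open, wild type; filled, apum23; 3 arrays each), and the genotypes are apart in the beta-subunit against organelle row, the cysteinyl row and the threonyl row, where the mean shifts are 0.49, 0.84 and 2.84.

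Genes that act on tRNA before or after charging were listed as well. Of 34 listed genes for tRNA maturation, export, modification, proofreading and rescue, 15 were measured, and 2 rose, 2 fell and 11 were not called, with a median log2 difference of 0.20. These counts are near the 9.69% higher and 10% lower of all probe sets and are no result about the list. AT2G22400, a tRNA cytosine methyltransferase gene, read 8.17, 8.15 and 8.14 in wild type, against 8.65, 8.84 and 8.71 in apum23 (0.58, limma adjusted p = 0.0015). GEK1 (AT2G03800), a deacylase that clears D-amino acids from tRNA, read 5.64, 5.89 and 5.73 against 6.17, 6.38 and 6.29 (0.53, limma adjusted p = 0.00487). In both genes the genotypes were apart. On the deposited values GEK1 was called (0.68, limma adjusted p = 0.0394) and AT2G22400 was not (0.64, limma adjusted p = 0.0612).

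The 2 falls were in genes of the peptidyl-tRNA hydrolase family, enzymes that free tRNA from stalled peptides. The family did not fall as a whole. Its other measured genes were not called and had positive log2 differences: AT1G18440 (0.25, groups apart), AT5G16870 (0.22) and AT5G19830 (0.05). AT5G16140 read 7.16, 6.91 and 7.15 in wild type, against 5.88, 5.10 and 5.93 in apum23 (-1.43, limma adjusted p = 0.00038). AT5G38290 differed by -0.41 (limma adjusted p = 0.0326). The call was lost when any array other than that of apum23 replicate 2 was left out on its own. Over the arrays left out the differences ran from -0.51 to -0.28. AT5G38290 was also not called on the deposited values (-0.31, limma adjusted p = 0.647) or with arrays centred on their medians (-0.48, limma adjusted p = 0.0556). Of the amidotransferase that corrects glutamate on organelle tRNA for glutamine, the GatA gene AT3G25660 was at -0.28 (adjusted p = 0.0686). The tRNA exportin gene PSD (AT1G72560), which neighbours the phenylalanyl beta subunit gene AT1G72550, was at 0.44 (adjusted p = 0.06) and was called without apum23 replicate 3 (0.58, limma adjusted p = 0.0372), while it was at 0.26 without apum23 replicate 2 (adjusted p = 0.18).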

How the data were processed

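The authors deposited log2 probe set intensities, and RMA and limma are named per the submitters' processing notes, with no version. Nothing says how plants were pooled, so p-values measure the spread between these samples. From the 22810 probe sets, 64 controls were left out. The rest were quantile-normalized, since the array medians of the deposited values differ and limma's prior degrees of freedom on them were infinite (7.27 after quantile normalization). The genotypes were tested against each other by limma 3.58.1 under R 4.3.3 (linear fit with moderated variance, two-sided, Benjamini-Hochberg over 22746 probe sets). The fit was tested on simulated data. Changes were set there in few probe sets, all brighter in wild type than AT1G17960 and AT3G56300, so dim genes like these are not covered. Each locus was measured by its brightest probe set with 1 gene (13513 such probe sets, 13436 matched to assembly TAIR10.1, 503 with several genes, 8730 unnamed here). All measured members are named, and of the tRNA-related list the called members and the measured peptidyl-tRNA hydrolase genes. AT3G25660, AT1G72560, AT1G17970 and the uncalled peptidyl-tRNA hydrolase genes were named, and the pairs compared, after values were seen. Members and lists were chosen with earlier results of these data known. Promoter motifs were not analysed here. The number of arrays limits the precision.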

Additional observations from a re-analysis of the deposited data

How the results depend on the processing

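Over 303 member values under 16 alternatives, 265 kept direction and call, 31 lost the call, 5 gained it and 2 changed sign. The latter were AT4G26870 (-0.018) and AT3G62120 (-0.050), with arrays centred on their medians. All 31 losses fell on the 9 called members, since a gene not called has no call to lose. The pooled count thus does not give the share of calls kept. Among the alternatives are stricter thresholds on the main fit.

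Against 4481 probe sets called (49.2% higher), 1522 were called on the deposited values as they stand (79.4% higher), 2997 after median centring (39.9% higher), 2462 at an adjusted p under 0.01, 382 at an absolute log2 difference of 1 or more, 2425 among single-gene probe sets, where fewer were tested, 1697 with apum23 replicate 1 alone, and from 2957 to 4049 when arrays were left out in turn, the lowest without apum23 replicate 3. The median of all probe sets was -0.02, 0.08 on the deposited values and -0.09 after centring. Members called higher, all cytosol-serving, numbered 5 on the deposited values (5.31% of all probe sets) and 5 after centring (5.26%). At a log2 difference of 1 or more 1 was called higher (1.25%), AT1G17960, listed with its rise known. From 6 to 11 were when arrays were left out in turn, where 6.79% to 9.27% of all probe sets rose. Members called lower numbered 0 on the deposited values, after centring and at a log2 difference of 1 or more. They also numbered 0 at an adjusted p under 0.01 and without the dimmest 40%, which drops AT3G56300. The cytosol-serving median, 0.30, was 0.37 on the deposited values, 0.20 after centring, 0.36 without the dimmest 40%, 0.44 with apum23 replicate 1 alone, 0.43 without the enzymes of cytosol and mitochondria and 0.28 to 0.40 with each array left out. The organelle median, -0.09, was -0.19 after centring, -0.020 on the deposited values and -0.13 to -0.019 when arrays were left out in turn. AT4G39280 minus AT3G58140 was 0.46 with apum23 replicate 1 alone. The tRNA-related list had 1 higher call on the deposited values and with apum23 replicate 1 alone, and 0 at a log2 difference of 1 or more. Its lower calls were 1 in the deposited, centred, adjusted p under 0.01 and log2 difference settings, and 1 to 2 with each array left out. The cause was not tested, except where fewer genes or arrays are named.

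Same-numbered arrays' deviations correlated at -0.21, 0.03 and 0.00028, and 0 of 6 arrays correlated best with their own number. The replicate block gave 3992 called probe sets and 7 members that rose, AT5G38830 being the member lost. With apum23 replicate 1 alone, the lone array is assumed to vary like the wild type. No measured member had a second single-gene probe set, so averaging probe sets was not run.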
